A study of Caenorhabditis elegans with 9 samples.

Results

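The sperm genes of Caenorhabditis elegans were followed in germ lines taken from hermaphrodites on day 6 of adulthood. They were all genes of the table whose symbol begins with msp-, spe-, ssp- or nspd- and a number, together with gsp-3 and gsp-4. This gave 84 of the 46245 genes, all of them protein-coding: 31 msp, 29 spe, 12 ssp, 10 nspd and 2 gsp genes. No level entered this rule, but it was set with earlier results of these data known. There were 3 groups of 3 libraries each. In the first, worms fed bacteria with an RNAi construct against iff-1 were kept at 15°C (iff-1 RNAi 15C). In the other 2 groups, worms fed bacteria with the empty RNAi vector were kept at 20°C (EV 20C) or at 15°C (EV 15C). All worms grew on OP50 bacteria until adulthood, when temperature and food were changed together. The protein made from iff-1 is a homologue of eIF5A, a translation factor. Germ lines were extruded after decapitation and collected, and poly-A RNA was sequenced in paired reads of 75 nt. The labels name no strain, and nothing in them tells whether replicates were separate cultures. The p-values then reflect only the spread among these libraries, which could be technical.

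Hermaphrodites of this species make sperm during the last larval stage and then switch the germ line to oocytes for the rest of life. Their sperm are stored in the spermatheca, crawl with a cytoskeleton of major sperm protein instead of actin, and are not replaced once used. Most sperm genes are transcribed while spermatocytes form. Major sperm protein (msp) is encoded by a multigene family of near-identical copies and also signals to oocytes to mature and ovulate. The spe genes were named for mutants with defective sperm and encode unrelated proteins, from kinases and channels to secreted ligands. The ssp genes encode small relatives of major sperm protein, gsp-3 and gsp-4 encode protein phosphatases of sperm, and nspd is a nematode-specific peptide family. In bulk germ lines, fewer cells of a type and less RNA per cell cannot be told apart.

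Levels were given by the authors as FPKM, fragments per kilobase of transcript scaled to the mapped fragments of the library, so levels of different genes are compared per length. Depth estimated from the low values was 34.0 to 39.9 fragments per library, in units of 1000000. At that depth 1 fragment on a gene of 384 nt, the median length of the msp genes, was worth 0.0653 to 0.0766 FPKM. The RNAi target iff-1 had 104, 58.0 and 37.4 FPKM in iff-1 RNAi 15C, 2665, 2442 and 2479 FPKM in EV 20C, and 2677, 2653 and 2510 FPKM in EV 15C. EV 20C replicate 1 had fewer genes above 0 than any other library, 13995 of 46245, and 17 sperm genes above 0, where the other 8 libraries had 24 to 31. An exact 0 in such a table can be a failed estimate. Of the 5855 genes with a median of at least 10 FPKM, 26 were at 0 in some library, and such a gene is called here listed at 0.

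Little RNA of most sperm genes was measured in the aged germ lines. Of the 84 genes, 34 (40.5%) were listed at 0 in all 9 libraries. Another 40 (47.6%) were low, meaning above 0 in at least 1 library with a mean under 1 FPKM. The remaining 10 (11.9%) were expressed, with a mean of at least 1 FPKM. Among all 19664 protein-coding genes the shares were 16.5% listed at 0, 42.5% low and 41% expressed. Of the 40 low sperm genes, 16 were above 0 in a single library, 19 in 2 to 8 libraries and 5 in all 9. With the genes expressed throughout, 14 sperm genes were above 0 in every library, 13 of them spe genes. Just above the limit of 1 FPKM lay spe-41 with a mean of 1.02, ssp-37 with 1.10 and spe-47 with 2.41 FPKM, and just below it spe-9 with 0.665, spe-51 with 0.409 and spe-26 with 0.350 FPKM.

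**Figure D1:**
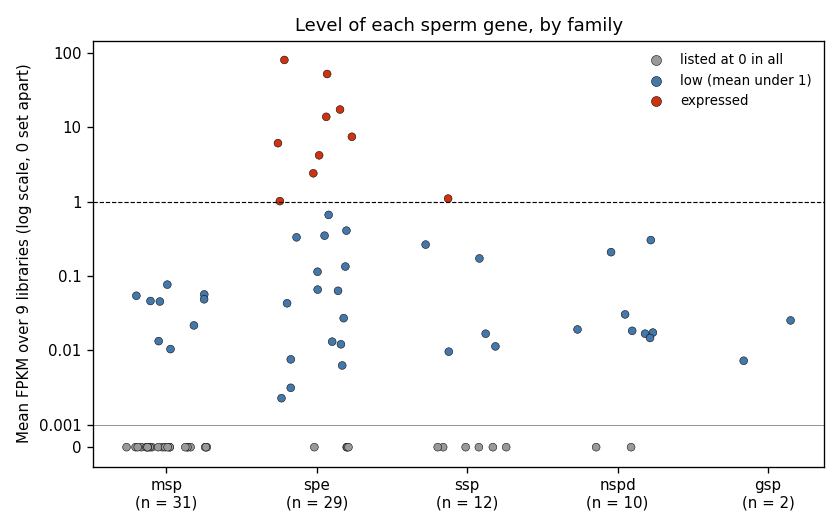
Mean FPKM over the 9 libraries of each of the 84 sperm genes (log axis, with 0 set apart below), by family, and the dashed line marks 1 FPKM. All 31 msp genes lie below 0.1 FPKM, and 9 of the 10 genes above the line are spe genes.

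By family, no msp gene was expressed: 22 of 31 (71%) were listed at 0 in every library and 9 were low. Of the 29 spe genes, 4 were listed at 0, 16 were low and 9 were expressed. Of the 12 ssp genes, 6 were listed at 0, 5 were low and only ssp-37 was expressed. Among the 10 nspd genes 2 were listed at 0 and 8 were low, and both gsp genes were low. Among the 4 spe genes listed at 0 were spe-11, a sperm-supplied factor needed by the embryo, spe-27, of the pathway that activates spermatids, and spe-49, a membrane protein needed at fertilization. Median exonic length was 384 nt for msp, 216 nt for nspd, 330 nt for ssp and 1267 nt for spe genes, so 1 fragment is worth more FPKM in the short families.

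The msp genes were close to the limit of 1 fragment. Of their 279 values (31 genes in 9 libraries), 20 were above 0, and 10 of these corresponded to fewer than 2 estimated fragments. Summed over the family, the estimated fragments were 1.2, 4.7 and 11.6 for iff-1 RNAi 15C, 0, 3.6 and 5.9 for EV 20C, and 6.1, 2.5 and 12.6 for EV 15C. The ranges of the 3 groups overlapped, and all 9 libraries together held an estimated 48.2 fragments. The highest mean was that of msp-31, 0.0768 FPKM. It rested on EV 15C replicate 3 alone, with 0.691 FPKM or an estimated 9.85 fragments, and msp-31 was listed at 0 in the other 8 libraries. Next came msp-59, with a mean of 0.0568 FPKM and 4 libraries above 0, and msp-51, with 0.0544 FPKM and 3 libraries above 0. For msp-59 those 4 values were 0.0764 FPKM in iff-1 RNAi 15C replicate 2, 0.169 and 0.0793 FPKM in EV 20C replicates 2 and 3, and 0.186 FPKM in EV 15C replicate 1. Reads of near-identical msp copies can be split between them or dropped, so the level of any single copy is uncertain, and the sources used here do not say how the authors' counting treated such reads.

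The 2 phosphatase genes were as low. The values of gsp-3 were 0, 0.0242 and 0.0257 FPKM in iff-1 RNAi 15C, 0, 0 and 0.124 FPKM in EV 20C, and 0.0285, 0 and 0.0261 FPKM in EV 15C. Apart from the estimated 5.43 fragments in EV 20C replicate 3, each of these values above 0 was worth about 1 fragment. The gene gsp-4 was above 0 in iff-1 RNAi 15C replicate 2, with 0.0215 FPKM, and in EV 20C replicate 3, with 0.0440 FPKM, and was listed at 0 elsewhere.

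The nspd genes were led by nspd-9, nspd-7 and nspd-6. Values of nspd-9 were 0.139, 0.269 and 0.639 FPKM in iff-1 RNAi 15C, 0, 0.603 and 0.284 FPKM in EV 20C, and 0.508, 0 and 0.301 FPKM in EV 15C. Those of nspd-7 were 0.130, 0.634 and 0 FPKM in iff-1 RNAi 15C, 0, 0.283 and 0.533 FPKM in EV 20C, and 0.158, 0.150 and 0 FPKM in EV 15C. In nspd-9 the groups overlapped over almost their whole range. In nspd-7 they overlapped at the low end, and EV 15C reached only 0.158 FPKM. The gene nspd-6 was above 0 in 2 libraries of iff-1 RNAi 15C alone, with 0.175 and 0.0997 FPKM, and the remaining low nspd genes were above 0 in 1 library each.

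**Figure D2:**
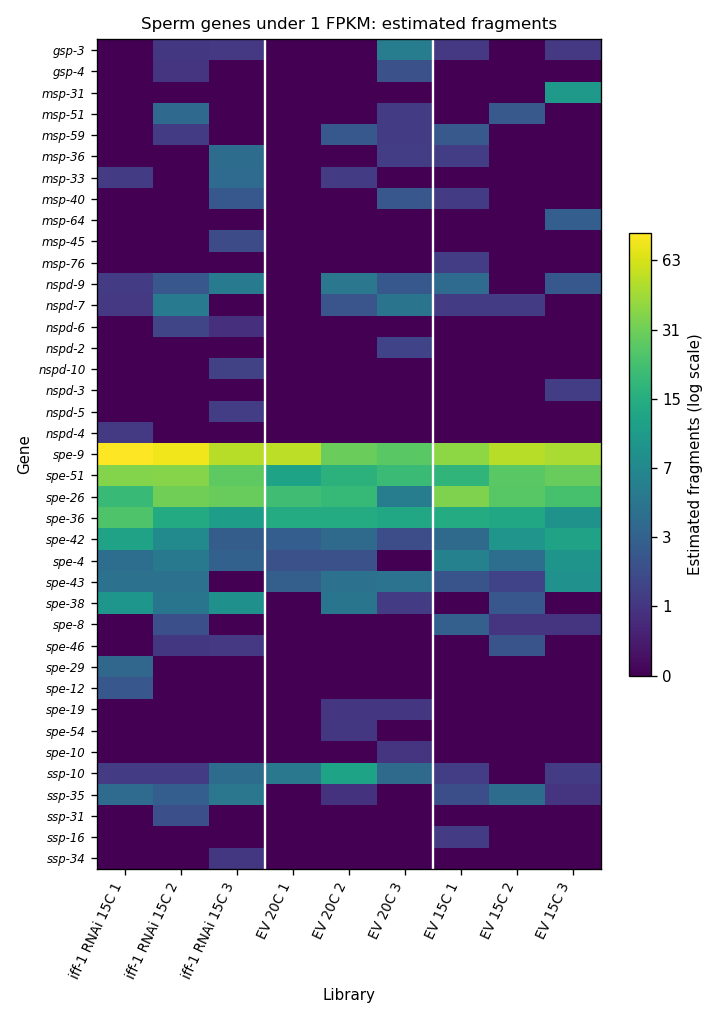
Estimated fragments (colour, log scale) of 39 of the 40 low sperm genes in each library, with white lines between the groups. The msp, nspd and gsp genes reach at most 9.85 estimated fragments in any library, whereas spe-9, spe-51, spe-26, spe-36 and spe-42 are above 0 in all 9. The exons of spe-36 overlap those of F40F11.3 on the same strand (mean 171 FPKM) and F12F6.1 on the opposite strand (114 FPKM), so its own level is uncertain.

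The sperm genes were unevenly placed on the chromosomes of the WBcel235 assembly. Chromosome IV held 37 of the 84 (44.0%, against 16.6% of all protein-coding genes), chromosome I held 21 (25.0%, against 14.4%), and chromosome X held none, against 13.5% of all protein-coding genes. All 31 msp genes lay on chromosomes II, with 13, and IV, with 18. Another msp gene lay within 50 kb of 29 of the 31 msp genes, whereas none of the 29 spe genes had another spe gene within 50 kb. The expressed genes did not all lie on the same chromosome. Of them, spe-48, spe-5, spe-15, spe-47 and ssp-37 lay on chromosome I, and the others on chromosomes II, III, IV and V.

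Among the 10 expressed genes the highest was spe-39 (chromosome V, 6785451 to 6787864, plus strand), which encodes a vesicle-trafficking protein that is also made outside the germ line, with a mean of 80.5 FPKM. The next, spe-48, stood at 59.7, 60.0 and 59.0 FPKM in iff-1 RNAi 15C, at 0, 57.9 and 60.0 FPKM in EV 20C and at 58.6, 56.6 and 57.0 FPKM in EV 15C. Its single 0 was in EV 20C replicate 1. Then came spe-5, a subunit of the vacuolar proton pump, with a mean of 17.4 FPKM, spe-44 (chromosome IV, 12452063 to 12454215, minus strand), a transcription factor of the sperm program, with 13.8 FPKM, and spe-6 (chromosome III, 11505488 to 11508930, plus strand), a kinase of the casein kinase 1 family that holds back sperm activation, with 7.47 FPKM. The myosin VI gene spe-15 averaged 6.12 FPKM and spe-18 (chromosome II, 13151459 to 13153399, minus strand), needed to assemble major sperm protein into fibrous bodies, 4.20 FPKM. The lowest were spe-47, which encodes a protein with a major sperm protein domain, ssp-37, and spe-41 (chromosome III, 3439011 to 3444210, minus strand), a calcium channel of the TRPC type used by sperm at fertilization. In library values, spe-5 overlapped spe-44, and each neighbour overlapped the next from spe-6 down to spe-41, whereas spe-39, spe-48 (apart from its 0) and spe-5 were separate from each other, as were spe-44 and spe-6. An annotated gene overlapped only 2 of the 10: spe-5 on the opposite strand by ift-20 (mean 0.539 FPKM) and spe-47 on the opposite strand by Y23H5A.9, listed at 0 in all libraries.

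**Figure D3:**
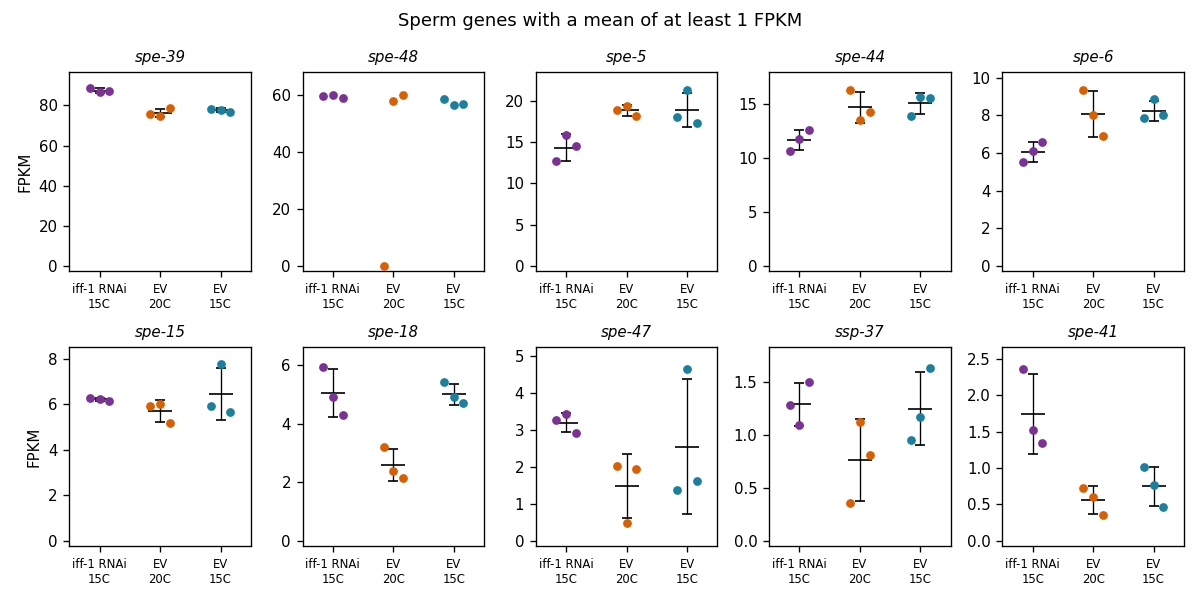
FPKM of the 10 expressed sperm genes in each library (points) with the mean and SD of each group of 3 (bars, none for spe-48). In spe-39 and spe-41 the iff-1 RNAi 15C libraries lie above all others, in spe-5, spe-44 and spe-6 below all others, and spe-18 is lowest in EV 20C.

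The comparison of iff-1 RNAi 15C with EV 15C asked how depletion of iff-1 acts at the low temperature. Of the 10 expressed sperm genes, 2 rose and 3 fell in iff-1 RNAi 15C (limma on log2(FPKM + 1), Benjamini-Hochberg adjusted p under 0.05). Over all 8572 genes tested, 31% were called, 16% higher and 15% lower. With 10 sperm genes tested, those numbers describe these genes and no more. Groups of 3 libraries did not overlap in 6 of the 10, against 49.7% of all tested genes.

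The 2 genes that rose were spe-39 and spe-41. For spe-39 the values were 88.6, 86.7 and 87.0 FPKM in iff-1 RNAi 15C, against 78.4, 78.0 and 76.5 FPKM in EV 15C. All 3 libraries of iff-1 RNAi 15C were higher, by a small step beside a narrow spread (log2 fold change 0.17, SE 0.03, limma adjusted p = 0.00324). For spe-41 the values were 2.37, 1.53 and 1.34 FPKM in iff-1 RNAi 15C, against 1.01, 0.771 and 0.472 FPKM in EV 15C. The groups did not overlap (log2 fold change 0.64, SE 0.20, limma adjusted p = 0.0362). The gene passed the limit of 1 FPKM only through iff-1 RNAi 15C, and its call was lost without EV 15C replicate 2 or replicate 3, with a pseudocount of 0.1, under quantile normalization and without the filter on low values (adjusted p up to 0.107). Without any single library of iff-1 RNAi 15C it fell below that limit and was not tested.

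The 3 genes that fell were spe-5, spe-44 and spe-6. For spe-5 the values were 12.7, 15.9 and 14.5 FPKM in iff-1 RNAi 15C, against 18.1, 21.3 and 17.3 FPKM in EV 15C (log2 fold change -0.37, SE 0.10, limma adjusted p = 0.0193). For spe-44 they were 10.7, 11.8 and 12.6 FPKM in iff-1 RNAi 15C, against 13.9, 15.7 and 15.6 FPKM in EV 15C (log2 fold change -0.34, SE 0.09, limma adjusted p = 0.0214). For spe-6 they were 5.52, 6.08 and 6.60 FPKM in iff-1 RNAi 15C, against 7.86, 8.86 and 8.04 FPKM in EV 15C (log2 fold change -0.39, SE 0.11, limma adjusted p = 0.0307). In each of the 3 every iff-1 RNAi 15C library lay below every EV 15C library. The calls are near the threshold: spe-5 lost its call without iff-1 RNAi 15C replicate 1 or EV 15C replicate 2 and under quantile normalization (adjusted p up to 0.0642). The call of spe-44 was lost without iff-1 RNAi 15C replicate 1 or 2, or EV 15C replicate 2 or 3, and under quantile normalization (up to 0.0993). For spe-6, leaving out any library of the 2 groups other than iff-1 RNAi 15C replicate 3 ended the call, as did dropping the filter on low values and the replicate block (up to 0.103).

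The other 5 expressed genes did not pass. The values of spe-18 were 5.92, 4.90 and 4.29 FPKM in iff-1 RNAi 15C, against 5.40, 4.90 and 4.68 FPKM in EV 15C, overlapping fully (log2 fold change 0.00, SE 0.14). For spe-15 they were 6.28, 6.22 and 6.14 FPKM in iff-1 RNAi 15C, against 5.92, 7.75 and 5.67 FPKM in EV 15C. For ssp-37 they were 1.28, 1.09 and 1.50 FPKM in iff-1 RNAi 15C, against 0.953, 1.17 and 1.63 FPKM in EV 15C. Both overlapped. For spe-47 the values were 3.26, 3.43 and 2.91 FPKM in iff-1 RNAi 15C, against 1.38, 4.65 and 1.61 FPKM in EV 15C, where replicate 2 stood apart and above all iff-1 RNAi 15C libraries (log2 fold change 0.36, SE 0.37). For spe-48, given above, the libraries of the 2 groups did not overlap, with a log2 fold change of 0.05. The SE of that gene is inflated to 1.34 by the 0 of EV 20C replicate 1, which shares the fit.

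The comparison of EV 20C with EV 15C asked what temperature does without RNAi of the target. Only spe-18 of the 10 expressed sperm genes changed, and it fell at 20°C. Its values were 3.20, 2.38 and 2.15 FPKM in EV 20C, against 5.40, 4.90 and 4.68 FPKM in EV 15C. Every EV 20C library lay below every EV 15C library (log2 fold change -0.75, SE 0.14, limma adjusted p = 0.00678), and its adjusted p lay between 0.00444 and 0.0289 in all 18 alternatives that tested it. Of all genes tested, 28% were called, 19.3% higher and 8.69% lower at 20°C. Groups did not overlap in 1 of the 10 sperm genes and in 45.4% of all tested genes.

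For the other expressed genes the 20°C and 15°C libraries overlapped. For spe-39 they were 75.6, 74.9 and 78.7 FPKM in EV 20C, against the 76.5 to 78.4 FPKM of EV 15C (log2 fold change -0.02, SE 0.03). For spe-5 they were 18.9, 19.4 and 18.2 FPKM in EV 20C, against 17.3 to 21.3 FPKM in EV 15C (log2 fold change 0.00, SE 0.10). In EV 20C, spe-44 had 16.4, 13.5 and 14.3 FPKM and spe-6 had 9.33, 8.04 and 6.89 FPKM, above and below their EV 15C libraries. The values of spe-41 in EV 20C were 0.724, 0.600 and 0.354 FPKM, those of spe-15 were 5.94, 6.01 and 5.17 FPKM, and those of ssp-37 were 0.356, 1.12 and 0.811 FPKM. Those of spe-47 were 2.02, 0.489 and 1.96 FPKM. None of these 4 passed, with log2 fold changes from -0.47 to -0.14 against EV 15C. For spe-48 the log2 fold change of -1.93 (SE 1.34, limma adjusted p = 0.308) rested on the 0 of EV 20C replicate 1, and was 0.04 without that library.

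Set directly against each other, iff-1 RNAi 15C and EV 20C differed in 6 of the 10 expressed genes, 3 higher and 3 lower in iff-1 RNAi 15C. Of all tested genes, 48.9% were called, 20.5% higher and 28.4% lower. Against EV 20C, spe-18 was higher in iff-1 RNAi 15C by a log2 fold change of 0.76 (SE 0.14, limma adjusted p = 0.0028), spe-41 by 0.81 (SE 0.20, limma adjusted p = 0.00904) and spe-39 by 0.19 (SE 0.03, limma adjusted p = 0.000839). Of these, spe-41 passed the limit of 1 FPKM only through iff-1 RNAi 15C. Lower in iff-1 RNAi 15C were spe-5, with a log2 fold change of -0.38 (SE 0.10, limma adjusted p = 0.0115), spe-6, with -0.36 (SE 0.11, limma adjusted p = 0.029), and spe-44, with -0.31 (SE 0.09, limma adjusted p = 0.0206). In all 6 the libraries of the 2 groups did not overlap, as in 8 of the 10 sperm genes and in 56.5% of all tested genes. The calls of spe-44 and spe-6 were lost without iff-1 RNAi 15C replicate 1 or 2 or EV 20C replicate 1, and that of spe-6 also without EV 20C replicate 2, without the filter on low values, with the replicate block and with only the 2 groups compared in the fit (adjusted p up to 0.0944). Quantile normalization ended the calls of spe-5 (adjusted p = 0.0791), spe-6 and spe-44, with spe-44 at a log2 fold change of -0.15 (adjusted p = 0.311). The gene spe-47 had 3 higher libraries in iff-1 RNAi 15C but missed the threshold (log2 fold change 0.82, SE 0.37, limma adjusted p = 0.095); it passed when EV 15C replicate 2, which enters the shared spread, was left out (adjusted p = 0.0383). This comparison shares its libraries with the other 2.

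**Figure D4:**
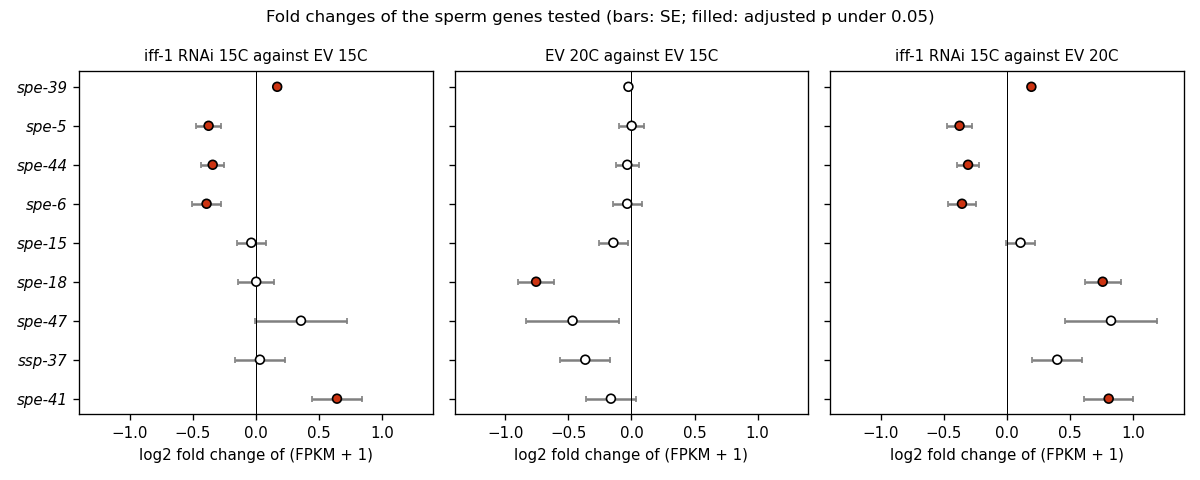
Log2 fold changes of FPKM + 1 for 9 expressed sperm genes in the 3 comparisons (points, with bars of 1 SE; filled where the adjusted p was under 0.05). The gene spe-48 is left out because 1 library is listed at 0; spe-18 is the one filled point between EV 20C and EV 15C, and spe-5, spe-44 and spe-6 lie left of 0 in both comparisons of iff-1 RNAi 15C.

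The low genes were tested together with the expressed ones on log2(FPKM + 0.1), over the 15746 genes above 0 in at least 3 libraries. This took in 31 of the 84 sperm genes, the 10 expressed ones and 21 low ones. The genes that passed this filter are those with some signal, so they do not stand for all 84. Between iff-1 RNAi 15C and EV 15C 5 of the 31 were called, 2 higher and 3 lower, against 16.2% of all genes in that fit (8.88% higher, 7.3% lower). Between EV 20C and EV 15C 3 were called, 1 higher and 2 lower, against 13.6% of all genes (9.09% higher, 4.56% lower). Between iff-1 RNAi 15C and EV 20C 9 were called, 6 higher and 3 lower, against 30.4% of all genes (15.4% higher, 14.9% lower). These calls take in expressed genes described above, so they are not counts of low genes. The expressed ones were spe-5, spe-6, spe-44 and spe-39 in the first comparison and spe-18 in the second. In the third they were spe-5, spe-6, spe-44, spe-39, spe-18 and spe-41. Groups did not overlap in 8 of the 31 for iff-1 RNAi 15C against EV 15C (35.4% of all genes), in 7 for EV 20C against EV 15C (31.4%) and in 12 for iff-1 RNAi 15C against EV 20C (43%). None of the 5 msp, 2 nspd and 1 gsp genes in this fit was called in any comparison. Median log2 fold changes of the 31 genes were 0.09, -0.16 and 0.34 in these 3 comparisons, against 0.07, 0.00 and 0.08 over all genes. The 3 comparisons share libraries, so these medians are not independent.

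Among the low genes that were called, spe-38 and spe-51 encode a sperm surface protein and a secreted protein used at fertilization. For spe-38, a membrane protein that crosses the membrane several times, the values were 0.360, 0.176 and 0.336 FPKM in iff-1 RNAi 15C, 0, 0.193 and 0.0453 FPKM in EV 20C and 0, 0.0988 and 0 FPKM in EV 15C. It was higher in iff-1 RNAi 15C than in EV 15C (log2 fold change of FPKM + 0.1 of 1.60, SE 0.44, limma adjusted p = 0.041). Its exons overlap those of impt-1 on the same strand, which averaged 63.3 FPKM, so reads of the 2 genes may not be told apart. For spe-51, a secreted protein with an immunoglobulin-like domain, the values were 0.575, 0.582 and 0.452 FPKM in iff-1 RNAi 15C, 0.209, 0.279 and 0.314 FPKM in EV 20C and 0.321, 0.450 and 0.496 FPKM in EV 15C. It was higher in iff-1 RNAi 15C than in EV 20C (log2 fold change 0.80, SE 0.26, limma adjusted p = 0.0457).

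Also called among the low genes were spe-4, ssp-10 and ssp-35. The presenilin gene spe-4, which acts in sorting contents to the fibrous body and membranous organelle of spermatocytes, had 0.0349, 0.0341 and 0 FPKM in EV 20C, against 0.110, 0.0688 and 0.152 FPKM in EV 15C, and was lower in EV 20C (log2 fold change -0.77, SE 0.21, limma adjusted p = 0.0457). In iff-1 RNAi 15C it had 0.0640, 0.0785 and 0.0497 FPKM, which overlapped the EV 15C libraries and lay above those of EV 20C. The small major sperm protein relative ssp-10 was higher in EV 20C, with 0.412, 0.995 and 0.281 FPKM, against 0.110, 0 and 0.0991 FPKM in EV 15C (log2 fold change 1.89, SE 0.50, limma adjusted p = 0.0381). Its values in iff-1 RNAi 15C were 0.0920, 0.0898 and 0.308 FPKM. Another such relative, ssp-35, had 0.290, 0.213 and 0.397 FPKM in iff-1 RNAi 15C, 0, 0.0783 and 0 FPKM in EV 20C and 0.173, 0.325 and 0.0778 FPKM in EV 15C. It was higher in iff-1 RNAi 15C than in EV 20C (log2 fold change 1.70, SE 0.38, limma adjusted p = 0.00985). These calls rest on levels under 1 FPKM and on few fragments. Estimated fragments per library were 0 to 2.02 in EV 20C against 3.99 to 8.96 in EV 15C for spe-4. They were 3.65 to 12.1 in EV 20C against 0 to 1.24 in EV 15C for ssp-10. For ssp-35 they were 2.75 to 4.85 in iff-1 RNAi 15C against 0 to 0.93 in EV 20C. An exact two-sided permutation test of 3 against 3 libraries could give no p below 0.1.

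Next to the 1 FPKM limit, spe-9 and spe-26 were not called in any comparison. For spe-9, a sperm membrane protein with EGF repeats, the values were 1.05, 0.945 and 0.676 FPKM in iff-1 RNAi 15C, 0.716, 0.396 and 0.328 FPKM in EV 20C and 0.559, 0.695 and 0.623 FPKM in EV 15C. Between iff-1 RNAi 15C and EV 20C its libraries overlapped (log2 fold change 0.81, SE 0.31, limma adjusted p = 0.0798). The gene overlaps C17D12.5 on the opposite strand, which averaged 0.615 FPKM, so its own level is uncertain. For spe-26, an actin-binding kelch protein, the values were 0.278, 0.442 and 0.437 FPKM in iff-1 RNAi 15C, 0.317, 0.282 and 0.0795 FPKM in EV 20C and 0.578, 0.398 and 0.335 FPKM in EV 15C. The gene spe-41, called in iff-1 RNAi 15C against EV 15C at a pseudocount of 1, was not called in this fit (log2 fold change 1.13, SE 0.36, limma adjusted p = 0.066).

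Sums over a family do not depend on how reads were split between its copies, but reads that were dropped would be missing from the sum too. The msp sum was 0.397 ± 0.372 FPKM in iff-1 RNAi 15C, 0.215 ± 0.199 FPKM in EV 20C and 0.510 ± 0.357 FPKM in EV 15C (SD, n = 3 each), and the groups overlapped. The nspd sum was 0.845 ± 0.385 FPKM in iff-1 RNAi 15C, 0.625 ± 0.544 FPKM in EV 20C and 0.425 ± 0.260 FPKM in EV 15C (SD, n = 3 each), again overlapping. The 20 spe genes under 1 FPKM summed to 3.56, 2.88 and 2.32 FPKM in iff-1 RNAi 15C, 1.75, 1.78 and 1.28 FPKM in EV 20C and 2.15, 2.27 and 2.25 FPKM in EV 15C. Among them are spe-36 and spe-38, whose reads may not be told apart from those of the much higher genes they overlap. In that sum all iff-1 RNAi 15C libraries were above, and all EV 20C libraries below, the EV 15C libraries. The place of iff-1 RNAi 15C replicate 3 rested on spe-38, which supplied 0.336 of its 2.32 FPKM. In EV 15C spe-38 supplied 0, 0.0988 and 0 FPKM. Without spe-38, that iff-1 RNAi 15C library would not lie above the EV 15C libraries. The iff-1 RNAi 15C libraries also had more genes of the whole table above 0, 14981 to 15394, than the EV 20C libraries, with 13995 to 14691, and the EV 15C libraries, with 14379 to 14627. The part of this in the spe sum was not tested. No p is given for a sum over chosen genes. The 11 ssp genes under 1 FPKM summed to 0.383, 0.454 and 0.792 FPKM in iff-1 RNAi 15C, 0.412, 1.07 and 0.281 FPKM in EV 20C and 0.385, 0.325 and 0.177 FPKM in EV 15C. All 84 sperm genes together made up 0.0190% to 0.0195% of the summed FPKM in iff-1 RNAi 15C, 0.0129% to 0.0194% in EV 20C and 0.0190% to 0.0192% in EV 15C. The low end in EV 20C is replicate 1, in which spe-48 was listed at 0. Without spe-48, the spe genes averaged a sum of 138.7 FPKM in iff-1 RNAi 15C, 130.0 FPKM in EV 20C and 136.8 FPKM in EV 15C.

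**Figure D5:**
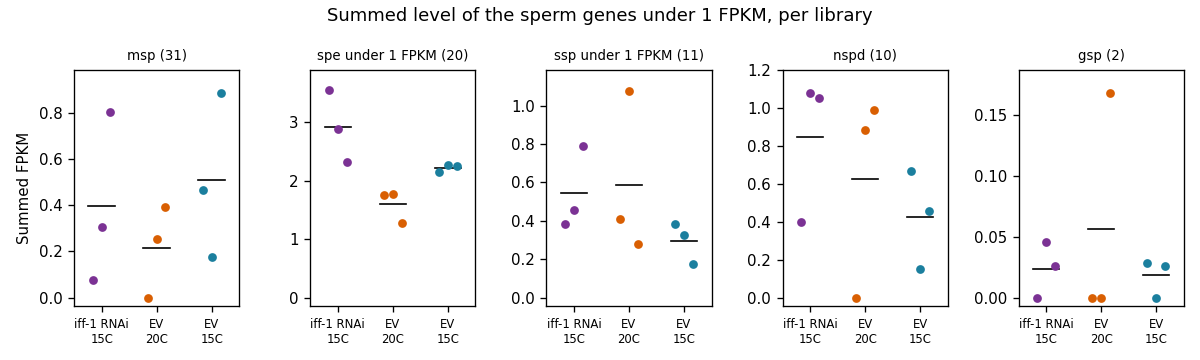
Summed FPKM of the sperm genes with a mean under 1 FPKM in each library (points) with the group mean (line), by family and number of genes. The groups overlap for msp, nspd, gsp and ssp, and the 20 spe genes are highest in iff-1 RNAi 15C, with 2.32 to 3.56 FPKM, and lowest in EV 20C, with 1.28 to 1.78 FPKM. The iff-1 RNAi 15C library at 2.32 FPKM lies above EV 15C only through spe-38, whose exons overlap those of impt-1.

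Of 21 other genes known for sperm that were found in the table, 4 (19%) were listed at 0 in all libraries, 14 (66.7%) were low and 3 (14.3%) were expressed. The expressed ones were set-17, a histone methyltransferase, with a mean of 116 FPKM, zipt-7.1, a zinc transporter used in sperm activation, with 75.9 FPKM, and smz-1, which encodes a PDZ-domain protein of sperm, with 1.60 FPKM. The sperm ferlin gene fer-1 stood at 0.795 FPKM. In iff-1 RNAi 15C against EV 15C 1 of the 3 expressed genes was called, zipt-7.1, with 74.7 ± 0.812 FPKM against 70.0 ± 0.588 FPKM (SD, n = 3 each; log2 fold change 0.09, SE 0.03, limma adjusted p = 0.0311). Over all genes tested, 31% were called in iff-1 RNAi 15C against EV 15C and 19.3% rose in EV 20C against EV 15C. In EV 20C against EV 15C 2 of the 3 expressed genes of this list rose. They were zipt-7.1, with 83.0 ± 1.57 FPKM in EV 20C (log2 fold change 0.24, SE 0.03, limma adjusted p = 0.000905), and set-17, with 124 ± 5.71 FPKM in EV 20C against 109 ± 0.621 FPKM in EV 15C (log2 fold change 0.19, SE 0.04, limma adjusted p = 0.0142). Against EV 20C, zipt-7.1 was lower in iff-1 RNAi 15C (log2 fold change -0.15, SE 0.03, limma adjusted p = 0.00194).

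All 16 regulators of the choice between sperm and oocyte and of the sperm program that were looked up were expressed, with a median of 59.7 FPKM. Over all genes tested, 16% rose and 15% fell in iff-1 RNAi 15C against EV 15C. Of these regulators, 7 rose and 2 fell there. Those with the smallest adjusted p were fog-1, a CPEB-related RNA-binding protein that specifies sperm, daz-1, a DAZ-family RNA-binding protein, fog-3, a Tob-family protein that specifies sperm together with fog-1, and gld-1, a translational repressor of the meiotic germ line. The values of fog-3 were 23.7, 18.2 and 14.9 FPKM in iff-1 RNAi 15C, 2.55, 3.12 and 2.34 FPKM in EV 20C and 7.26, 6.36 and 4.31 FPKM in EV 15C. The 3 groups did not overlap. Against EV 15C its log2 fold change was 1.52 in iff-1 RNAi 15C (SE 0.20, limma adjusted p = 0.00122) and -0.91 in EV 20C (SE 0.20, limma adjusted p = 0.0122). The values of fog-1 were 167, 164 and 140 FPKM in iff-1 RNAi 15C, 87.6, 95.6 and 85.4 FPKM in EV 20C and 97.2, 96.9 and 87.5 FPKM in EV 15C. It rose in iff-1 RNAi 15C against EV 15C (log2 fold change 0.73, SE 0.08, limma adjusted p = 0.000517) and did not pass in EV 20C against EV 15C (-0.07, SE 0.08). In EV 20C against EV 15C 2 regulators rose and 3 fell, against 19.3% and 8.69% of all genes tested. Among those called, fog-2, an F-box protein that allows hermaphrodites to make sperm, was higher by 0.17 (SE 0.04). The gene cpb-1, a CPEB-related protein needed in spermatocytes, was at -0.15 (SE 0.04) and daz-1 at -0.12 (SE 0.03). In iff-1 RNAi 15C against EV 20C 6 rose and 3 fell, against 20.5% and 28.4% of all genes tested. The called regulators were led by fog-3 at 2.42 (SE 0.20), daz-1 at 0.36 (SE 0.03), fog-1 at 0.80 (SE 0.08) and tra-3, a calpain protease of sex determination, at -0.71 (SE 0.10). The transcription factor gene spe-44, which fell in iff-1 RNAi 15C, and fog-1 and fog-3, which rose there, moved in opposite directions in the same libraries.

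The tissue label was set against markers of the cells an extruded germ line could hold. All 20 oocyte and eggshell genes were expressed, with a median of 612 FPKM, and their summed level was 14832 to 15212 FPKM in iff-1 RNAi 15C, 17068 to 18332 FPKM in EV 20C and 15872 to 16595 FPKM in EV 15C. Of these 20 genes, 1 rose and 3 fell in iff-1 RNAi 15C against EV 15C, and 12 rose in EV 20C against EV 15C. Over all genes tested, 16% rose and 15% fell in the first comparison, and 19.3% rose and 8.69% fell in the second. Of the 14 genes of the somatic gonad, which includes the spermatheca, 5 were expressed, 7 were low, and ehn-3 and hlh-12 were listed at 0. Their summed level was 306 to 334 FPKM in iff-1 RNAi 15C, 303 to 333 FPKM in EV 20C and 339 to 359 FPKM in EV 15C. Intestine genes, 11 of 15 expressed, summed to 151 to 358, 91.0 to 192 and 111 to 363 FPKM in the same 3 groups, and body wall muscle genes, 10 of 13 expressed, to 144 to 178, 126 to 196 and 191 to 229 FPKM. Genes first transcribed in the embryo, 3 of 14 expressed, summed to 12.5 to 14.8, 16.6 to 20.7 and 13.2 to 16.8 FPKM. The oocyte sums of the 3 groups did not overlap. That of EV 20C replicate 2 lacks cpg-3, which was listed at 0 there and had 1503 and 1664 FPKM in EV 20C replicates 1 and 3. The somatic gonad sums of both iff-1 RNAi 15C and EV 20C lay below those of EV 15C. Of the 5 somatic gonad genes tested, 1 was called higher and 0 lower in each of these comparisons. In EV 20C against EV 15C that gene was apx-1, with 102 against 91.5 FPKM. The highest of the list, fln-1, averaged 127, 129 and 158 FPKM in iff-1 RNAi 15C, EV 20C and EV 15C, and was not called in either. Its libraries did not overlap, with 106 to 144 FPKM in iff-1 RNAi 15C and 111 to 141 FPKM in EV 20C, against 155 to 163 FPKM in EV 15C. The muscle sums of iff-1 RNAi 15C lay below those of EV 15C, and the embryo sums of iff-1 RNAi 15C below those of EV 20C. The part of these differences in those of the sperm genes was not tested.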

How the data were processed

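The authors deposited 1 table of FPKM values, 1 column per library. Per the submitters' processing notes, CASAVA and Cufflinks were used, with no versions or roles. The sources used here do not give the aligner, genome build, annotation or strand setting. Symbols were matched for 43227 of 46245 gene IDs, and lengths, positions and overlaps come from the WBcel235 annotation of Ensembl. The authors' build may differ.

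Counts were not used here. The worth of 1 fragment was read from the lowest values of genes with 1 transcript of 1000 to 3000 nt. Of 56 values of 7 low sperm genes of 1000 nt or more, 32 lay within 0.2 of a whole fragment, so counts were not recovered and estimated fragments are approximate. Intervals that need counts are not given.

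Tests used limma 3.58.1 (R 4.3.3) on values of log2(FPKM + 1) from the 8572 genes with a mean of at least 1 FPKM. All 9 libraries entered 1 fit with a variance trend. Tests were two-sided, with Benjamini-Hochberg adjustment over all genes tested. A pseudocount understates changes of low genes. A second fit used log2(FPKM + 0.1). The steps were tested on simulated data.

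The sperm genes and all gene lists were chosen with earlier results of these data known. Named in the text are the expressed sperm genes, the 3 highest of each family, the genes nearest the 1 FPKM limit, those called in either fit, and from the lists of other sperm genes and of regulators the 4 called genes with the smallest adjusted p and the highest by mean; others were chosen after their values were seen. Alternatives changed pseudocount, filter, scaling, samples in the fit, a replicate block and single libraries. Shared sequence between msp copies was not analysed here. Results for a few sperm genes are not reported here.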

Additional observations from a re-analysis of the deposited data

How the results depend on the processing

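Both calls of spe-18 and of spe-39 held in every alternative that tested them, 18 for spe-18 and 19 for spe-39. The call of spe-41 against EV 20C held in the 15 alternatives that tested it. None of these 15 left out a library of iff-1 RNAi 15C. The gene passed the limit of 1 FPKM only through that group, and fell below it without any of its libraries. How far that call rests on a single iff-1 RNAi 15C library was therefore not tested. The other calls were nearer the threshold. At a mean of at least 5 FPKM, which drops spe-18 from the genes tested, 0 sperm genes were called in EV 20C against EV 15C. Quantile normalization left 2 calls in iff-1 RNAi 15C against EV 15C and 3 in iff-1 RNAi 15C against EV 20C, and the cause was not tested. With single libraries left out, those counts lay between 1 and 5 (1 on leaving out iff-1 RNAi 15C replicate 1, or replicate 2 of EV 15C; 2 on leaving out iff-1 RNAi 15C replicate 2, or replicate 3 of EV 15C) and between 3 and 7 (3 without iff-1 RNAi 15C replicate 1 or 2). All genes called in EV 20C against EV 15C then lay between 1521 and 2503, with 1534 on leaving out replicate 3 of EV 20C, or replicate 1 of EV 15C. In the fit on log2(FPKM + 0.1) the counts lay between 1 and 2 in EV 20C against EV 15C, between 1 and 5 in iff-1 RNAi 15C against EV 15C and between 3 and 9 in iff-1 RNAi 15C against EV 20C. For EV 20C against EV 15C that count was 1 with a pseudocount of 1, and 1 with genes above 0 in at least 1 library. With the replicate block it was 1, and 3 in iff-1 RNAi 15C against EV 15C. Replicate numbers did not pair the samples: same-numbered libraries correlated at r = -0.19 to 0.08 in their deviations from the group means, and 2 of 18 correlated best with their own number. In the main test the replicate block gave 1, 4 and 5 sperm genes for EV 20C against EV 15C, iff-1 RNAi 15C against EV 15C and iff-1 RNAi 15C against EV 20C; spe-6 was the call lost. Expressed sperm genes numbered 20 at a mean of at least 0.1 FPKM and 6 at 5 FPKM. The spe sum in iff-1 RNAi 15C was 193.3 FPKM after median ratio scaling and 195.3 FPKM when scaled without the 10 highest genes. Under 1 FPKM, the spe genes summed to means of 2.92, 1.60 and 2.22 FPKM and the ssp genes to 0.543, 0.589 and 0.296 FPKM in iff-1 RNAi 15C, EV 20C and EV 15C. With spe-48 left out, chosen after seeing the data, the spe means were 138.7, 130.0 and 136.8 FPKM.

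Signs turned only in differences that were not called, as log2 fold changes. For spe-5 in EV 20C against EV 15C they became -0.014 (median ratio scaling), -0.0545 (quantile normalization) and, with a library left out, -0.0559 to 0.0864. For spe-18 in iff-1 RNAi 15C against EV 15C they became -0.0396, -0.0466 and -0.011 (scaled without the 10 highest genes), and -0.0998 to 0.0938 with a library left out. For ssp-37 in the same comparison they became -0.1131 under quantile normalization and -0.064 to 0.1508 with a library left out, and spe-15 then lay between -0.1095 and 0.0861. In EV 20C against EV 15C, spe-39 became 0.0075 without the 10 highest genes, and with a library left out spe-48 lay between -2.9277 and 0.0381, spe-44 between -0.1052 and 0.0221 and spe-6 between -0.13 and 0.064. Shared sequence between msp copies, and its window lengths, were not run. The msp, nspd and gsp levels rest on a few estimated fragments per library. Those of these genes above 0 in at least 3 libraries were not called in any comparison, and the others were not tested. What size of difference could have been called was not worked out.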
